A study of Homo sapiens with 3 samples.

Results

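Metallothioneins were followed in single-cell transcript counts of a myeloma line and a stromal line, grown apart and together. The 6 genes described are MT2A, MT1X, MT1E, MT1F, MT1G and MT1M, taken by symbol from the 3 deposited count tables, which hold 43913 symbols in all. Of the 6 genes, 5 had at least 1 transcript in a cell of either line. In Drop-seq, single cells meet barcoded beads in droplets, and their RNA molecules are told apart by unique molecular identifiers (UMIs). The lines were MM.1S, which was established from a patient with multiple myeloma, and HS-5, an established stromal line of human bone marrow. There was 1 library of MM.1S monoculture, 1 of HS-5 monoculture and 1 of both after 4 h of coculture, which the figure legends of the study give as 2 h. No agent or genetic change is named for any of these samples. MM.1S cells were kept in RPMI and HS-5 cells in DMEM, both with serum, so the medium cannot be told apart from the line, and the medium of the coculture is not given in the sources used here. Each condition is 1 library, so the comparisons carry no p-values. The 95% intervals (exact Poisson for levels, exact Clopper-Pearson for shares, exact conditional for ratios) cover counting error only.

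Metallothioneins are small cysteine-rich proteins that bind zinc and copper and take up toxic metals such as cadmium. Their genes are switched on by the zinc-sensing transcription factor MTF1, which binds metal response elements in their promoters, and also by glucocorticoids, inflammatory cytokines and oxidative stress. MT2A is the most widely expressed human form, while the MT1 genes are a tandem family of close copies that cells use to different extents. In most cells metallothioneins are known mainly as a store of zinc and as a buffer against metals and oxidants.

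The members lie within 76.0 kb of chromosome 16 (GRCh38, GENCODE release 29), inside a cluster of 15 metallothionein genes and pseudogenes from 56565049 to 56684196. MT2A spans 56608199 to 56609497, MT1E 56625475 to 56627112, MT1M 56632233 to 56633986, MT1F 56657694 to 56660698 and MT1X 56682424 to 56684196 on the plus strand, and MT1G spans 56666731 to 56668065 on the minus strand. All 6 are annotated as protein-coding. Promoter sequences from RefSeq (GRCh38.p14) matched 2 of the 6 members, MT2A and MT1X, the pair that carried most of the metallothionein UMIs in every group. Their 250 bases before the start that RefSeq annotates, which lies inside the GENCODE span of either gene, are shown because both genes share the binding motif of MTF1. The core of the metal response element was searched as TGCACNC and TGCGCNC on both strands and stands in capitals, the rest in lower case.
MT2A, chr16:56608334-56608583, plus strand: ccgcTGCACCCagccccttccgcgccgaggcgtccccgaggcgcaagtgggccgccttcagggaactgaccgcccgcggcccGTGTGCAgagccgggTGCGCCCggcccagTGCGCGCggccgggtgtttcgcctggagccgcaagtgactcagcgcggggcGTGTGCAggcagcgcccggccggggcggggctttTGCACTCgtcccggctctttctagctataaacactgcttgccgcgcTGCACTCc
MT1X, chr16:56682220-56682469, plus strand: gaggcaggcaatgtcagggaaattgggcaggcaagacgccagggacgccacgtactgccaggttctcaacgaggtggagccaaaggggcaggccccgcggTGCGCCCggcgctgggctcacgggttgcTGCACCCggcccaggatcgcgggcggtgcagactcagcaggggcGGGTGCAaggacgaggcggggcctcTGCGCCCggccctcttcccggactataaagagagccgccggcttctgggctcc
The MT2A window held 7 cores, a number reached by 11 of 35116 promoters of this length (0.0313%). The MT1X window held 4, which 130 promoters reached (0.370%), and 24.8% of all promoters held at least 1. Both windows also held the word TATAAA, at -29 to -24 in MT2A and at -30 to -25 in MT1X, which 6.80% of promoters held on the gene's strand. Of other metallothionein genes, MT1H held 8 cores, which 6 promoters reached, and MT1B and MT4 held 3 each. MT1H had only 2 UMIs in HS-5 monoculture and 2 in HS-5 coculture. The MT2A window held 32 CG pairs and that of MT1X 22, against a median of 11, and promoters were not matched for this. These matches describe letters in the windows, and no binding was measured.

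The coculture library stood apart in depth for MM.1S cells. The libraries held 3994, 3865 and 3963 barcodes with 10433182, 6143448 and 3981392 UMIs (MM.1S, HS-5 and coculture), and pairs of libraries shared 39 to 76 barcodes. Cells with at least 200 genes were kept. Coculture cells were assigned to a line by the UMIs of genes at least 50 times higher in 1 monoculture than in the other (82 for MM.1S, 229 for HS-5, metallothioneins left out), which gave 1642 MM.1S cells, 2104 HS-5 cells and 110 mixed cells (2.85%) that were left out as doublets. Doublets within a line were not removed. Of 18 MM.1S markers, 13 reached 10 counts per 1000000 UMIs (CPM) in both MM.1S groups and at most 5 in HS-5 groups, and of 18 HS-5 markers 15 did so in both HS-5 groups and 6 and 7 in the MM.1S groups. The summed HS-5 markers took 13036 and 14731 CPM in HS-5 and 6300 and 5897 in MM.1S (monoculture and coculture), and FN1, the gene of fibronectin on that list, was higher in MM.1S (810 and 2224 CPM) than in HS-5 (252 and 281 CPM). Median depth was 2201 UMIs per MM.1S cell in monoculture against 669 in coculture, and 971.5 against 957 for HS-5 cells. Mitochondrially encoded genes took 6.82% and 4.05% of UMIs in MM.1S and 2.79% and 2.23% in HS-5.

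HS-5 cells carried abundant metallothionein transcripts and MM.1S cells very few. The 6 members together took 4864 CPM in HS-5 monoculture (4809 to 4920, 29879 UMIs) and 24.6 CPM in MM.1S monoculture (21.7 to 27.8, 257 UMIs), a ratio of 197 (175 to 224). In coculture they took 5584 CPM in HS-5 cells (5492 to 5678) and 65.5 CPM in MM.1S cells (52.5 to 80.8, 87 UMIs). Both HS-5 groups lay above both MM.1S groups.

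MT2A, the main metallothionein of most tissues, stood at 3.07 CPM in MM.1S monoculture (2.10 to 4.33, 32 UMIs), 42.2 CPM in MM.1S coculture (31.9 to 54.8, 56 UMIs), 4515 CPM in HS-5 monoculture (4462 to 4569, 27734 UMIs) and 5151 CPM in HS-5 coculture (5062 to 5242, 12757 UMIs). Both HS-5 groups were high and both MM.1S groups low. MT1X, one of the more widely expressed MT1 genes, had 18.7 CPM in MM.1S monoculture (16.2 to 21.5, 195 UMIs), 19.6 in MM.1S coculture (12.8 to 28.7, 26 UMIs), 155 in HS-5 monoculture (145 to 165, 949 UMIs) and 257 in HS-5 coculture (238 to 278, 637 UMIs). Its MM.1S groups did not differ beyond counting error, and its HS-5 groups did. MT1E had 0.575 CPM in MM.1S monoculture (0.211 to 1.25, 6 UMIs), 2.26 in MM.1S coculture (0.466 to 6.60, 3 UMIs), 193 in HS-5 monoculture (182 to 205, 1187 UMIs) and 174 in HS-5 coculture (158 to 192, 432 UMIs). All 6 MT1E UMIs of the MM.1S monoculture lay in 1 cell with 2955 UMIs, of which 2 came from HS-5-specific and 193 from MM.1S-specific genes.

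**Figure D1:**
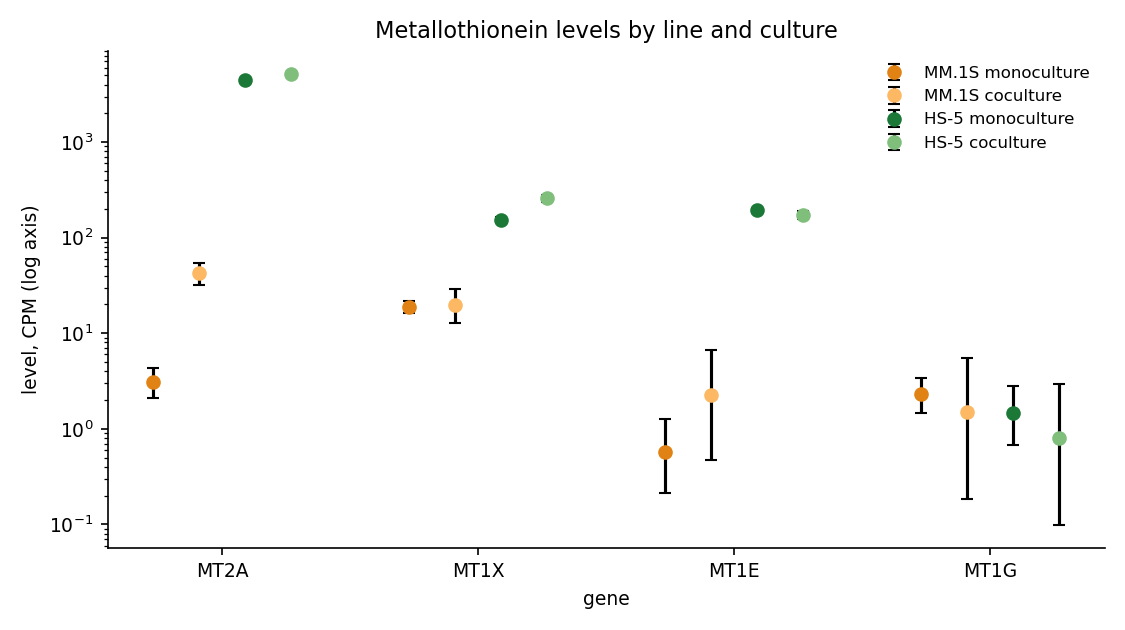
Levels of 4 metallothioneins (CPM, log axis) in MM.1S cells (orange) and HS-5 cells (green) in monoculture (dark) and coculture (light). Points are 1 library each and bars are 95% Poisson intervals of counting error, and MT2A, MT1X and MT1E lie higher in both HS-5 groups than in both MM.1S groups, while the 4 intervals of MT1G overlap.

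The other members were at or near the limit of counting. MT1G, a form best known from kidney, thyroid and liver, had 2.30 CPM in MM.1S monoculture (24 UMIs), 1.51 in MM.1S coculture (2 UMIs), 1.47 in HS-5 monoculture (9 UMIs) and 0.808 in HS-5 coculture (2 UMIs), with overlapping intervals in all 4 groups. MT1F had 1 UMI in a single HS-5 cell of the coculture and MT1M had 1 UMI in a mixed cell. Neither MT1F nor MT1M has a row in the 2 monoculture tables, in which every listed gene has at least 1 UMI.

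Per kilobase of the longest coding transcript, MT2A led in HS-5 monoculture with 5745 CPM per kilobase, and MT1X with 287 (269 to 306) and MT1E with 265 (250 to 281) were neighbours with overlapping intervals. In HS-5 coculture the order was 6554 for MT2A, 478 for MT1X (442 to 517) and 239 for MT1E (217 to 263), and the last 2 stood apart. MT1X led in MM.1S monoculture with 34.7 CPM per kilobase (30.0 to 40.0), ahead of MT2A with 3.90 (2.67 to 5.51) and MT1G with 3.66 (2.35 to 5.45), which overlapped. In MM.1S coculture MT2A had 53.7 CPM per kilobase (40.5 to 69.7) and MT1X 36.4 (23.8 to 53.3), again with overlapping intervals. Drop-seq primes at the poly(A) tail, so UMIs need not grow with transcript length.

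The make-up of the metallothionein pool differed between the lines in monoculture. MT2A made up 92.8% of the pool's UMIs in HS-5 monoculture (92.5 to 93.1%) and 92.2% in HS-5 coculture (91.8 to 92.7%). In MM.1S monoculture MT1X made up 75.9% (70.2 to 81.0%), MT2A 12.5% (8.67 to 17.1%) and MT1G 9.34% (6.08 to 13.6%). Among MM.1S cells of the coculture the shares were 64.4% for MT2A (53.4 to 74.4%) and 29.9% for MT1X (20.5 to 40.6%), so MT2A led in both lines there. The 56 MT2A UMIs behind this share lay under the 122 that the estimate of RNA from HS-5 cells, given below, would place there. No make-up of the MM.1S pool in coculture is read from them.

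The first comparison asked how the lines differ when grown apart, with line, medium and library not separable. Of the 8734 genes whose mean reached 10 CPM, 53.5% were past 2-fold, 38.1% higher and 15.3% lower in HS-5, and the median log2 ratio was 0.56 (pseudocount of 1 CPM). Of the members, 3 reached the minimum, and all 3 were over 2-fold higher in HS-5. With 3.07 and 0.575 CPM in MM.1S, MT2A and MT1E reached it only through HS-5, so the minimum fixed their direction. MT1G, with 2.30 CPM in MM.1S and 1.47 in HS-5, did not reach it. MT2A had a log2 ratio of 10.12, the fifth highest of all genes, and a ratio of 1472 (1043 to 2153). MT1E had a log2 ratio of 6.95 and a ratio of 336 (154 to 918), the 70th highest. Its 6 UMIs in MM.1S all lay in 1 cell, and the interval, which takes them as separate counts, does not cover this. MT1X had a log2 ratio of 2.98 and a ratio of 8.27 (7.08 to 9.69). Genes with transcripts of the same length as these members, 538 to 786 bases, had a median of -0.50 over 181 genes. With size factors by the median of ratios in place of CPM, the log2 ratio of MT2A was 9.52 and the median of all genes was moved by 0.59, which turned the 71.3% of calls that were higher in HS-5 into 49.9%. The log2 ratio of MT1X was 2.39 with size factors, 2.43 with equal weight per cell and 2.32 with 200 to 2500 genes and under 5% mitochondrial UMIs, past 2-fold in each.

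The second comparison asked what coculture goes with in HS-5 cells. Here 3.02% of 8815 genes were past 2-fold in either direction, 1.19% higher and 1.83% lower in coculture, with a median log2 ratio of -0.03, and none of the 3 members tested was past 2-fold. The members differed among themselves. MT1X went from 155 to 257 CPM, a log2 ratio of 0.73 and a ratio of 1.66 (1.503 to 1.84). MT2A had a log2 ratio of 0.19 and a ratio of 1.14 (1.12 to 1.17). MT1E had a log2 ratio of -0.15 and a ratio of 0.903 (0.807 to 1.01), within counting error. Counted per MT1E UMI, a ratio in which the total UMIs cancel, MT1X had 0.799 UMIs in monoculture (0.733 to 0.871) against 1.47 in the cocultured cells (1.30 to 1.67).

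**Figure D2:**
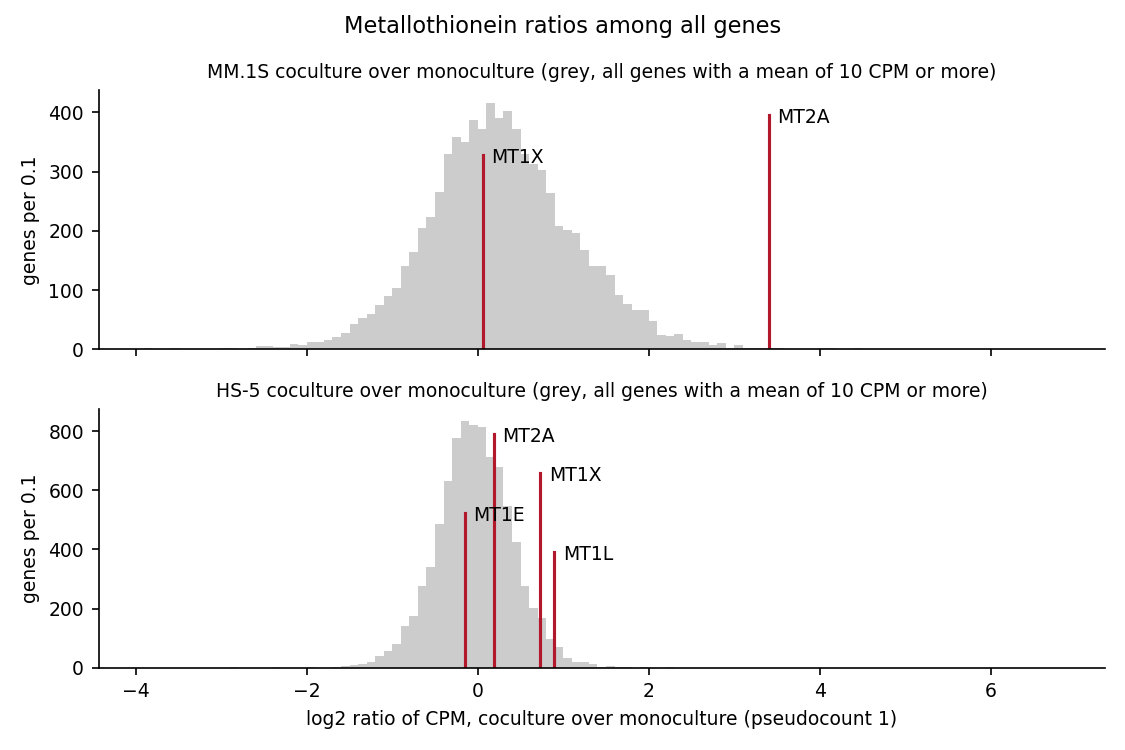
Log2 ratios of CPM, coculture over monoculture, in MM.1S cells (top) and HS-5 cells (bottom). Grey bars count all genes whose mean reached 10 CPM in steps of 0.1, and the heights of the red lines that mark metallothioneins carry no value. MT2A (3.41) lies beyond the bulk of genes in MM.1S, and MT1X (0.73) and MT1L (0.90) lie on the right flank in HS-5.

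Transcript length moved with these HS-5 ratios. The shortest 25% of genes had a median log2 ratio of 0.19 and the longest 25% one of -0.17. Among the 168 genes with transcripts of 538 to 786 bases the median was 0.44, 117 of them lay above MT2A and 42 above MT1X. Relative to these genes the log2 ratios were 0.29 for MT1X, -0.25 for MT2A and -0.59 for MT1E, so the direction of MT2A turned. In MM.1S cells, coculture over monoculture, the order was the reverse, with -0.15 for the shortest 25% of genes and 0.53 for the longest. Between the monocultures it was also the reverse (-0.08 and 1.10). No ratio of the gene lists below was adjusted for length. The part of transcript length in the result was not tested.

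The size of the MT1X difference also depended on the depth of the cells. With HS-5 monoculture cells divided by UMIs per cell into 4 classes of equal size, the classes from shallow to deep held 88.3, 84.0, 95.5 and 197 CPM of MT1X, where the deepest class had a median of 2790 UMIs and an interval of 183 to 211 CPM. In HS-5 coculture the classes held 220, 231, 244 and 281 CPM. Every coculture class lay above the first 3 monoculture classes, and the deepest monoculture class stood apart from the others of its culture. MT2A had 4227 to 4568 CPM in the monoculture classes and 4769 to 5258 in coculture, and MT1E had 188 to 210 and 152 to 195. By classes of mitochondrial share, MT2A had 4852 CPM in the lowest monoculture class (median 1.12% of UMIs) and 4117 in the highest (5.02%), and 5036 to 5263 CPM over the coculture classes. With every cell thinned to 500 UMIs before summing, the log2 ratio of MT1X was 1.30, and with equal weight per cell 1.18, both past 2-fold. The part of depth in the result was not tested.

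**Figure D3:**
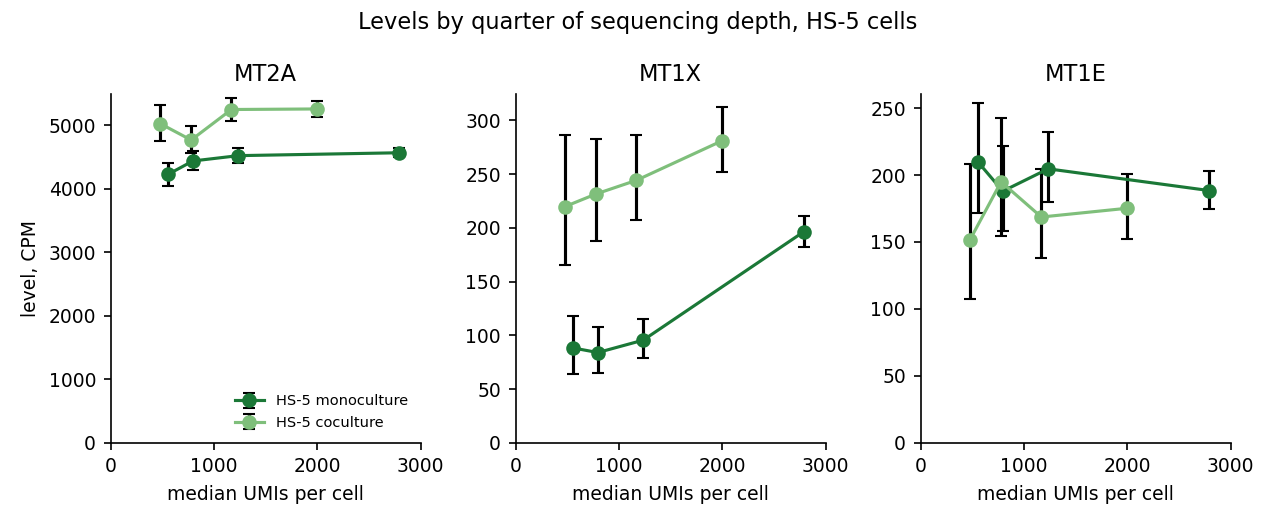
Levels of MT2A, MT1X and MT1E (CPM) in 4 equal classes of HS-5 cells ordered by UMIs per cell, plotted at each class's median depth, in monoculture (dark green) and coculture (light green). Bars are 95% Poisson intervals of counting error, and MT1X stands at 84.0 to 95.5 CPM in the 3 shallower monoculture classes and at 197 in the deepest.

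The shares of positive cells also separated the lines. A cell was called positive with at least 1 UMI after each cell was thinned to 500 UMIs, which left out no MM.1S cells in monoculture, 445 in coculture, and 217 and 300 HS-5 cells. Among HS-5 cells, MT2A was detected in 83.9% of 3515 from monoculture (82.6 to 85.1%) and 84.0% of 1804 from coculture (82.2 to 85.6%). Among MM.1S cells it was detected in 0.127% of 3947 from monoculture (0.0411 to 0.295%) and 2.17% of 1197 from coculture (1.42 to 3.17%). The MT1X shares were 5.38% (4.65 to 6.17%) and 12.8% (11.3 to 14.4%) in HS-5, and 0.785% and 1.25% in MM.1S. MT1E was detected in 8.96% (8.04 to 9.95%) and 7.59% (6.41 to 8.91%) of HS-5 cells, and in 1 MM.1S cell of each culture. Without thinning, the MT2A shares were 93.1% and 92.6% in HS-5 and 0.785% and 3.41% in MM.1S.

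MT2A was spread widely among HS-5 cells. The median was 2 UMIs of 500 in both cultures, with an interquartile range of 1 to 3 in monoculture and 1 to 4 in coculture, and the highest cell held 16 and 30. The variance was 1.41 times the mean in monoculture, the 34th highest of 2013 genes with at least 100 CPM, whose median was 1.03. In coculture it was 1.80 times the mean, the 18th highest of 1974 genes. MT2A had the 5th highest level in both HS-5 groups, and these places were not adjusted for level. Cells with 10 or more MT2A UMIs made up 0.142% in monoculture and 0.554% in coculture.

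**Figure D4:**
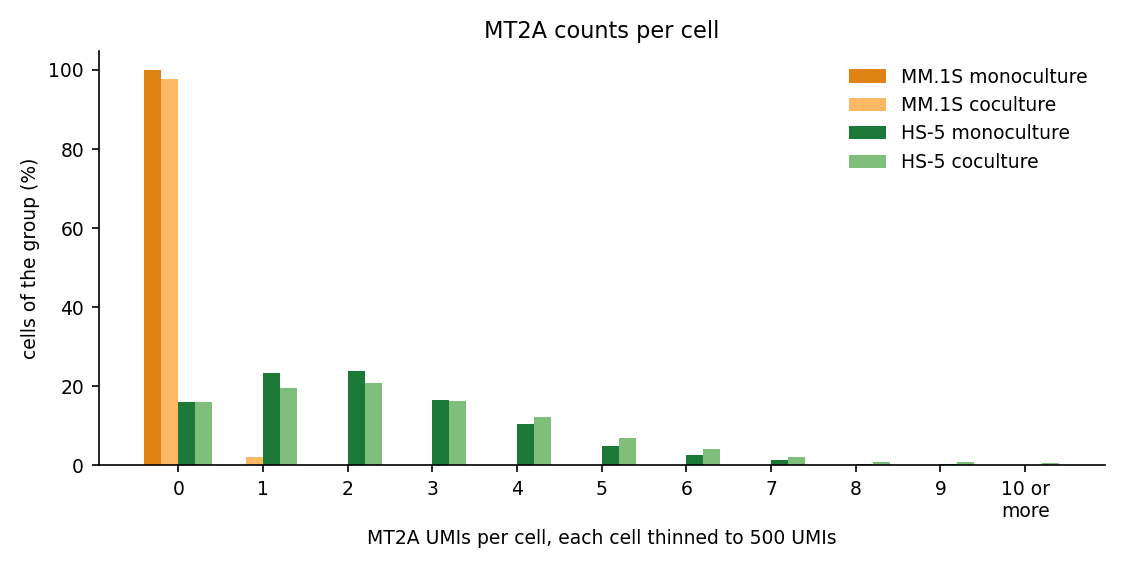
MT2A UMIs per cell with every cell thinned to 500 UMIs, as the percentage of each group's cells. MM.1S cells (orange) stand almost wholly at 0, and HS-5 cells (green) have a median of 2 UMIs in both cultures, with 16.1% of monoculture cells at 0.

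At 500 UMIs per cell, the members showed only a weak link from cell to cell in HS-5. Among cells with 0 to 1, 2 to 3 and 4 or more MT2A UMIs, MT1E was found in 7.34%, 8.83% and 12.4% of cells in monoculture and in 5.47%, 8.23% and 9.48% in coculture. MT1X was found in 4.46%, 5.23% and 7.48% of these cells in monoculture and in 10.3%, 13.3% and 15.3% in coculture. MT1E was found in 9.52% of monoculture cells with MT1X (5.74 to 14.6%) and 8.93% of those without (7.98 to 9.95%), with overlapping intervals. These shares come from the cells of 1 library each, and all counts of a cell add up to 500. In monoculture MT1X and MT1E had means of only 0.0560 and 0.0976 UMIs per cell at this depth, so a stronger link could go unseen.

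The gene most like the metallothionein sum across the 3515 HS-5 monoculture cells was TFPI2, which encodes a secreted inhibitor of serine proteases, with a correlation of 0.137 of log counts among 2010 genes. RPL35 (0.090), TMSB4X (0.072), IL6 (0.068) and MYL6 (0.066) followed. In coculture TMSB4X, which encodes an actin-binding peptide, was highest of 1971 genes with 0.167, TFPI2 stood at place 4 with 0.113, and IL6, which encodes an inflammatory cytokine, had 0.019. At 500 UMIs per cell such weak correlations are a description of these cells, which share a library and a depth.

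The third comparison asked what coculture goes with in MM.1S cells. Here 24.8% of 7838 genes were past 2-fold, 19.0% higher and 5.81% lower, with a median log2 ratio of 0.24. Size factors by the median of ratios moved the median by 0.25 and brought the share of higher among called genes from 76.6% to 56.1%. Of the members, 2 reached 10 CPM and 1, MT2A, was past 2-fold. With 3.07 CPM in monoculture, MT2A reached the minimum only through coculture (42.2 CPM), so the minimum fixed its direction. MT2A had a log2 ratio of 3.41, the 20th highest, and a ratio of 13.7 (8.75 to 21.9). MT1X had a log2 ratio of 0.06, which was -0.19 with size factors, and a ratio of 1.05 (0.668 to 1.58). The pool of 6 had a log2 ratio of 1.38 and a ratio of 2.66 (2.06 to 3.404). No MM.1S cell of the coculture held more than 1 MT2A UMI, and 56 of 1642 cells held 1.

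UMIs of HS-5-specific genes were also counted in the droplets of MM.1S cells, and the MT2A level lay below a pooled estimate of this free RNA. The HS-5-specific genes put its share of UMIs in cocultured MM.1S cells at 1.78%, and 1.78% of the HS-5 level of MT2A would be 91.9 CPM, against 42.2 measured. The excess of MT2A in MM.1S cells over monoculture was 0.759% of its HS-5 level, that of MT1E 0.965% and that of MT1X 0.346%, and the median of 228 HS-5-specific genes was 1.49% (5th to 95th percentile -0.55 to 7.06%). Of these genes, 66 had a lower excess than MT2A, and the 3 that exceeded 2000 CPM in HS-5 cells all lay below 1.78% as well. In HS-5 coculture cells MMP1, TFPI2 and MMP3 had 9825, 3272 and 2775 CPM, and MT2A had 5151. In MM.1S coculture cells these 3 had 80.6, 21.8 and 23.3 CPM, after 0.0958, 0.575 and 0.0958 in monoculture. RRAD, also among the 228, had 92.6 CPM in MM.1S and 70.3 in HS-5 coculture cells. Subtraction, which sets any level under the estimate to 0, left 0 CPM of MT2A and of MT1E and 15.3 CPM of MT1X. The MT2A level of these cells thus lay below the pooled estimate. MT1E, with 3 UMIs against the 4.13 that this estimate gives, did not differ from it beyond counting error. No expression is read from either gene. MT2A was also counted in MM.1S cells with no UMI of an HS-5-specific gene. The 581 cells without one (median 580 UMIs) held 54.1 CPM (33.5 to 82.7), and the 1061 cells with such UMIs (median 724) held 37.2 CPM (25.9 to 51.8), with overlapping intervals. A shallow droplet can hold HS-5 RNA without such a UMI, so nothing is read from this split. The 110 mixed cells held 2321 CPM of MT2A, between the lines.

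**Figure D5:**
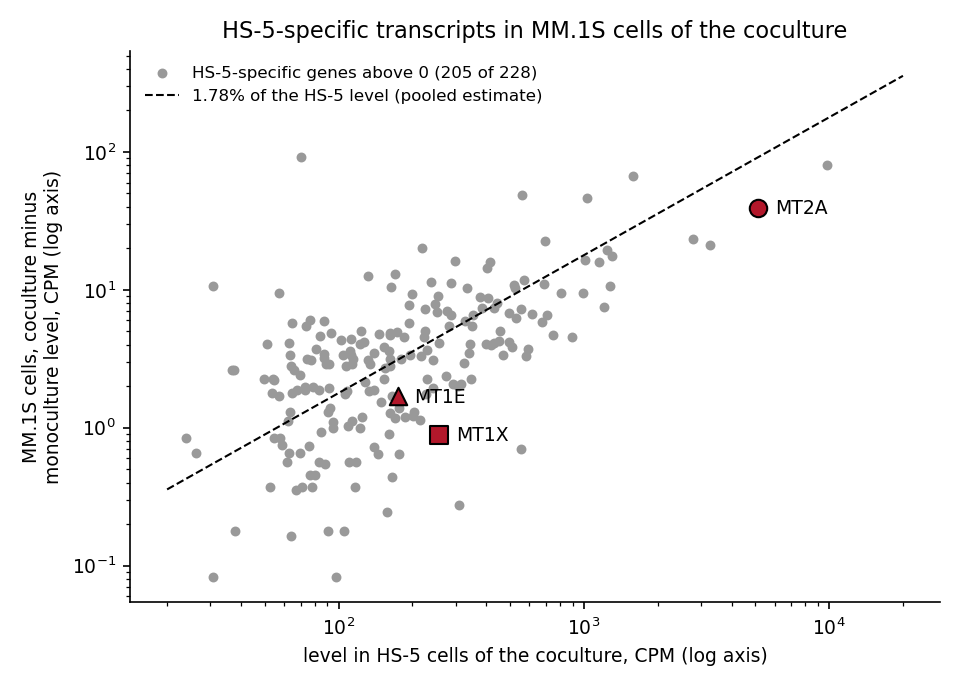
Level in MM.1S cells of the coculture minus that in monoculture, against the level in HS-5 cells of the coculture (CPM, log axes), for HS-5-specific genes (grey, the 205 of 228 with a difference above 0) and 3 metallothioneins (red). The dashed line is the pooled estimate of 1.78%, and the 3 metallothioneins and the 3 HS-5-specific genes over 2000 CPM lie below it.

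Close relatives of the members were counted beside them. MT1L, a transcribed pseudogene between MT2A and MT1E, stood at 34.7 CPM in HS-5 monoculture (213 UMIs) and 65.4 in coculture (162 UMIs), a log2 ratio of 0.90 and a ratio of 1.89 (1.53 to 2.32). Per MT1E UMI it went from 17.9% (15.4 to 20.8%) to 37.5% (31.1 to 45.0%). The processed pseudogene MT1XP1 stood at 6.68 and 15.3 CPM (log2 ratio 1.09) and MT2P1, named after its values were seen, at 9.61 and 16.2 CPM (0.69). MT1L, MT1A and MT2P1 had no UMI in MM.1S cells. MT1A had 2.12 and 2.42 CPM in HS-5, MT3, the form of the brain, had 0.753 to 1.79 CPM over the 4 groups, and MT1B, MT1H, MT1HL1, MT1DP, MT1JP, MT1CP, MT1P1, MT1P3 and MT4 had at most 6 UMIs in any group. Copies are so alike that the counting could place reads with the wrong one. Of the 50-base words in the last 300 bases of their coding transcripts, 22.3% were also found in transcripts of another gene for MT1X, 19.4% for MT1M, 17.2% for MT1G, 13.2% for MT2A, 7.81% for MT1E and 7.19% for MT1F, so the values of MT1X, MT1G and MT1M are the least certain.

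Zinc handling genes were compared as the setting in which metallothioneins work. MTF1, the zinc sensor that drives metallothionein genes, had 9.11 CPM in MM.1S monoculture and 21.1 in MM.1S coculture (log2 ratio 1.13), and 24.1 and 19.8 CPM in HS-5 (-0.27). SLC30A1, a zinc exporter of the plasma membrane and itself an MTF1 target, had 9.39 and 29.4 CPM in MM.1S (1.55, 98 and 39 UMIs) and 20.5 and 11.3 CPM in HS-5 (-0.81, 126 and 28 UMIs). Subtraction of free RNA took 0.353 CPM from MTF1 and 0.202 from SLC30A1, and their MM.1S ratios were then 1.13 and 1.56. For MT2A the estimate was 91.9 CPM, which left it at 0. The HS-5 level of each gene sets what is subtracted, so nothing is read from this contrast. Over all genes 24.8%, 3.02% and 53.5% were past 2-fold in the MM.1S, HS-5 and monoculture comparisons, against which the lists are to be read. A listed gene that reached the mean of 10 CPM only through its higher group had its direction fixed by this minimum. Of 15 zinc genes tested in MM.1S, these 2 were at least 2-fold higher and none lower (median 0.21), which became 1 higher with size factors. With 9.11 and 9.39 CPM in monoculture, both reached the minimum only through coculture, so the minimum fixed their direction. Of 16 zinc genes tested in HS-5, none was past 2-fold (median -0.26). SLC39A10, a zinc importer, was highest in HS-5 (0.58). Between the monocultures 4 of 16 zinc genes were higher in HS-5, led by the importers SLC39A13 (2.21) and SLC39A14 (2.09), and 2 were lower, SLC39A4 (-1.84) and SLC39A8 (-1.69). SLC39A13 (6.13 CPM in MM.1S), MTF1 and SLC30A1 reached the minimum only through HS-5 here, so it fixed their direction. With size factors 2 were higher and 4 lower, so the balance turned.

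Of the copper handling genes, 1 of 11 was over 2-fold higher in MM.1S cells in coculture (MAP2K1, a copper-binding kinase, 1.04) and 1 lower (COX11, a copper chaperone of cytochrome oxidase, -1.13), with a median of 0.35. None of 11 was past 2-fold in HS-5 (median 0.14), where the copper chaperone COX17 was highest at 0.88. Between the monocultures 1 of 10 was higher in HS-5, CCS, the copper chaperone of superoxide dismutase (1.37), with a median of 0.08. With size factors none was higher and 2 lower there, and none was higher and 1 lower in MM.1S.

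The targets of NRF2, the oxidant-responsive factor, went both ways. In MM.1S 2 of 17 were over 2-fold higher in coculture, GCLM (1.33), a subunit of the enzyme that starts glutathione synthesis, and the cystine transporter SLC7A11 (1.07), and 4 were lower, led by the ferritin heavy chain FTH1 (-1.37). In HS-5 none of 19 was higher and 2 were lower, SLC7A11 (-1.36) and glutathione reductase GSR (-1.05), while thioredoxin TXN (0.95) was highest. HS-5 monoculture cells held more of 7 of 19 than MM.1S cells, with 315 against 26.4 CPM of the quinone reductase NQO1 (3.53) and a log2 ratio of 2.73 for heme oxygenase HMOX1, and less of 3. HMOX1 and SLC7A11, with 2.30 and 7.38 CPM in MM.1S monoculture, reached the minimum only through HS-5, so it fixed their direction. In the MM.1S comparison SLC7A11 reached it only through coculture. With size factors 6 were higher and 7 lower between the monocultures, so the balance turned, and 1 was higher and 5 lower in MM.1S.

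Among metal and proteotoxic stress genes, 7 of 10 were over 2-fold higher in MM.1S cells in coculture and none lower, with a median of 1.58 against 0.24 for all genes. HSP90AA1, an abundant chaperone, had 540 CPM in monoculture and 3445 in coculture (2.67), the stress gene GADD45B 25.9 and 134 (2.33) and the chaperone HSPH1 125 and 549 (2.12). In HS-5 none of 12 was past 2-fold (median 0.06), with HSPH1 lowest at -0.72. HS-5 monoculture cells held more of 5 of 12 than MM.1S cells, led by the inducible chaperone HSPA1A (5.03, with 5 UMIs in MM.1S) and its cofactor BAG3 (3.94), and less of 1, the small heat shock protein HSPB1 (-1.39). With 0.479 and 5.08 CPM in MM.1S monoculture, HSPA1A and BAG3 reached the minimum only through HS-5, so it fixed their direction. In the MM.1S comparison BAG3 reached it only through coculture (24.1 CPM). With size factors 5 of 10 were higher in MM.1S, 1 of 12 was higher in HS-5 in coculture, and 4 were higher and 2 lower between the monocultures.

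Of the glucocorticoid response genes, 1 of 7 was higher in MM.1S cells in coculture (the kinase SGK1, 1.80) and 1 lower (TSC22D3, an anti-inflammatory leucine zipper protein, from 157 to 30.9 CPM, -2.31), and none of 10 was past 2-fold in HS-5 (medians 0.22 and -0.19). SGK1 is among the HS-5-specific genes, and its MM.1S ratio was 1.44 after subtraction of free RNA. Between the monocultures 3 of 8 were higher in HS-5, led by SGK1 (5.81) and the growth factor signalling inhibitor ERRFI1 (5.14), and 3 were lower, led by TSC22D3 (-3.14). With 5.56 and 0.958 CPM in MM.1S monoculture, SGK1 and ERRFI1 reached the minimum only through HS-5, so it fixed their direction. In the MM.1S comparison SGK1 reached it only through coculture. Of 8 genes that flank the metallothionein cluster on chromosome 16, none was past 2-fold in HS-5 cells in coculture (median 0.17), where BBS2 of the ciliary BBSome was highest at 0.86. With size factors 1 glucocorticoid response gene was higher and 2 lower in MM.1S, and 2 were higher and 3 lower between the monocultures. The medians in MM.1S of the zinc, NRF2 and glucocorticoid lists were then below 0, as were those of the copper, NRF2 and glucocorticoid lists between the monocultures.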

How the data were processed

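The members and gene lists were chosen with earlier results of these data known. The authors deposited UMI counts per gene and cell barcode as whole numbers, without normalization. The submitters' processing notes name STAR 2.5.3a, featureCounts 1.6.4 (Subread), UMI-tools 1.0.0, SAMtools 1.9, Cell Ranger 3.0.2 and GRCh38, with no role or order, and the methods name Seurat v2.4. Barcodes under 200 genes were dropped, and the others were assigned to a line by line-specific genes (50-fold apart, at least 50 CPM, HS-5 share under 0.2 or over 0.8). Sums over the cells of a line in a library were divided by all their UMIs and given per 1000000 (CPM). Log2 ratios have a pseudocount of 1, and a gene was called past 2-fold among those with a mean of at least 10 CPM. A floor of 3 UMIs is 2.26 CPM in cocultured MM.1S cells. The free RNA share, taken from genes specific to HS-5, was subtracted as an alternative. Genes were named by rule: the 6 members, the other metallothionein symbols, MTF1, SLC30A1, the 3 highest and 3 lowest of each list and the 5 genes most like the metallothionein sum. Some values for genes beside the cluster are not reported here. GENCODE release 29 holds 97.3% of the symbols. Steps were tested on simulated data (Python 3.11.15, numpy 2.4.6, scipy 1.17.1, pandas 2.3.3).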

Additional observations from a re-analysis of the deposited data

Results flagged for a closer look

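In 7 genes of the lists named with the metallothioneins, the log2 ratio of coculture over monoculture had opposite directions in MM.1S and HS-5, with both counting intervals clear of no difference and at least 1 line past 2-fold. The difference between the lines was not tested, since each condition is 1 library. No member was among them. SLC30A1 had 1.55 in MM.1S and -0.81 in HS-5. HSP90AA1 had 2.67 and -0.67, and HSPH1 had 2.12 and -0.72. SGK1 had 1.80 (1.44 after subtraction of free RNA) and -0.29, and SLC7A11 had 1.07 and -1.36. FTH1 had -1.37 in MM.1S and 0.46 in HS-5, and BBS2 had -1.05 and 0.86. In MM.1S, SLC30A1 (9.39 CPM in monoculture), SGK1 (5.56) and SLC7A11 (7.38) reached the minimum mean level only through coculture. BBS2 (6.78 CPM in MM.1S coculture) reached it only through monoculture. The minimum thus fixed the MM.1S direction of SLC30A1, SGK1, SLC7A11 and BBS2, and no contrast between the lines is read from these genes.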

How the results depend on the processing

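No paired analysis was possible because each condition is 1 library, and for the same reason no replicate could be left out. The log2 ratio of MT2A in MM.1S cells, 3.41 in the report, was 2.55 with a pseudocount of 5 CPM and -2.02 after subtraction of free RNA, and that of the pool of 6 was -0.53 after subtraction and 1.77 with cells thinned to 500 UMIs before summing. Subtraction brings the MT2A level to 0 by its own construction. In HS-5 cells MT2A had 0.23 and the pool 0.23 with size factors by the median of ratios, the pool 0.23 with thinned cells, and both turned to -0.25 and -0.24 relative to genes of the members' transcript length. Between the monocultures MT2A had 9.52 with size factors and 9.13 with a pseudocount of 5 CPM. The pool had 7.19 with 200 to 2500 genes and under 5% mitochondrial UMIs, 6.97 with size factors, 7.31 without mitochondrial and ribosomal protein genes in the total, 7.36 with a pseudocount of 5 CPM, 7.76 with thinned cells and 8.07 relative to genes of the members' length. For MT1X in HS-5 cells, the stricter limits on cells gave 1.08, equal weight 1.18 and thinning 1.30. The cause was not tested. MT2A was found in 95.6% and 96.1% of HS-5 cells (monoculture and coculture) and 3.70% of MM.1S cells in coculture at 1000 UMIs, and in 93.1%, 92.6%, 3.41% and, in MM.1S monoculture, 0.785% without thinning. Genes past 2-fold numbered 1943, 266 and 4672 in the MM.1S, HS-5 and monoculture comparisons, 6582, 2654 and 9168 with no minimum and 659, 95 and 1759 with a minimum of 50 CPM. List genes past 2-fold in HS-5 numbered 4 with no minimum against 2. Of 220 alternative values, 65 for MT2A, the pool, the highest correlation over cells and the counts over all genes or all lists, and 92 for other genes and single lists, lay near the reported ones. Near meant within counting error, 1.5 times for counts and a limit set by the number of cells for the correlation. A further 29 of the first kind and 32 of the second lay outside, and 2 more of the first kind turned direction. Thinning before summing and the reference to transcript length were chosen after seeing the data, as were MM.1S cells without HS-5-specific UMIs.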
